A study of Mus musculus with 6 samples.

Results

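Calcium channels, stores and pumps are the genes by which a cell lets calcium in, keeps it in internal stores, releases it and clears it. They were taken from the table by gene symbol: voltage-gated channel subunits (Cacn), ryanodine receptors (Ryr1 to Ryr3), inositol trisphosphate (IP3) receptors (Itpr1 to Itpr3), the store-operated entry genes Stim and Orai, the calcium pumps Atp2a, Atp2b and Atp2c, the calsequestrins Casq1 and Casq2, the sodium-calcium exchangers Slc8a1 to Slc8a3, and the pump regulators Pln and Sln. There were 53 such genes among the 23478 genes of the table, and all 53 passed the filter on low counts that left 19375 genes for testing. The question asked of them was how their transcripts are divided between developing airway muscle and the epithelium beside it, in a study concerned by its title with Wnt signalling, ion channels, smooth muscle and cartilage of the trachea.

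The 6 libraries came from mouse tracheas at embryonic day 13.5. Every one had the same genotype, Bmp4 f/f; gamma SMA eGFP, and the table heads them all as controls. The Bmp4 alleles are floxed and the labels name no Cre. Muscle (3 libraries) was sorted for green fluorescence from the eGFP reporter named for gamma smooth muscle actin, and epithelium (3 libraries) for an APC-coupled antibody to Epcam, an epithelial surface protein. What was called muscle is therefore what that reporter marks. The labels do not say whether the libraries are separate embryos, litters or pools, so the p-values measure the spread between these samples, which may be technical.

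In smooth muscle, contraction starts when calcium rises in the cytoplasm, binds calmodulin and switches on myosin light chain kinase. The calcium enters through voltage-gated L-type and T-type channels or through store-operated channels, or leaves the sarcoplasmic reticulum through IP3 and ryanodine receptors. It is removed by pumps of the reticulum (SERCA, the Atp2a genes), pumps of the plasma membrane (PMCA, the Atp2b genes) and sodium-calcium exchange. Epithelial cells use the same stores and entry routes for secretion and signalling.

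The identity of the sorts was checked on markers. All 10 smooth muscle markers were higher in muscle, with summed levels of 16896, 4137 and 17829 CPM (counts divided by the scaled library size) in muscle replicates 1 to 3 against 122 to 154 in epithelium. Muscle replicate 2 was thus about 4 times lower than the other muscle libraries. All 10 epithelial markers were higher in epithelium, at 3580 to 4760 CPM against 13.8 to 28.7. Library totals were 17686605 to 49352790 counts in muscle and 11847432 to 54848820 in epithelium. Some libraries carried more of genes that neither tissue is known to use. The summed level of 1440 olfactory and vomeronasal receptor genes, per kilobase of exon, was 0.00841, 0.145 and 0.00563 CPM in the muscle libraries (replicates 1 to 3) and 0.00138, 0.268 and 0.112 CPM in the epithelium libraries. Muscle replicate 2 and epithelium replicates 2 and 3 thus stood apart from the other libraries on that measure, and the sample identifiers of replicate 2 of both tissues share a part that those of replicates 1 and 3 lack.

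Among the 53 calcium genes, 7 were higher in muscle and 1 was higher in epithelium (edgeR quasi-likelihood test, adjusted p under 0.05). The muscle genes were Casq1, Cacna1g, Cacna2d1, Slc8a1, Atp2b4, Orai3 and Atp2b1. The epithelial gene was Stim2. The 7 are 13.2% of the members, where 6.58% of all genes tested were higher in muscle, and the 1 is 1.89%, where 4.11% of all genes were higher in epithelium. All 3 muscle libraries lay above all 3 epithelium libraries for 12 members (22.6%, against 16.4% of all genes), and the reverse held for 3 (5.66%, against 10.5%). Without adjustment, 14 members had a p under 0.05. The median log2 fold change of muscle over epithelium was 0.11 over the members and -0.10 over all genes.

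Calls were few and came only from members with many counts. With an average level of 4 or more in log2 CPM, a bound chosen after the values were seen, there were 15 members, and all 8 calls were among them, against 11.9% of all genes at such levels called higher in muscle and 6.35% higher in epithelium. The other 38 members gave no call in the main edgeR fit. The muscle count also depended on single libraries. It was 4 without muscle replicate 1, 9 without muscle replicate 2, 3 without muscle replicate 3, 3 without epithelium replicate 1, 7 without epithelium replicate 2 and 3 without epithelium replicate 3. It was 12 when replicate 2 of both tissues was left out. Muscle replicate 2, the library with the lowest smooth muscle marker sum, was the lowest muscle library in 6 of the 7 genes called higher in muscle, and the part of that marker difference in the results was not tested. The epithelial count was 3 without muscle replicate 2, where Atp2c2 and Cacna1b joined Stim2, and 2 without replicate 2 of both tissues. Casq1, Cacna1g, Cacna2d1 and Stim2 were called in each of the 14 alternative settings tried. Fewer cells of a type in a sorted sample and less RNA per cell cannot be told apart in bulk libraries of this kind.

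**Figure D1:**
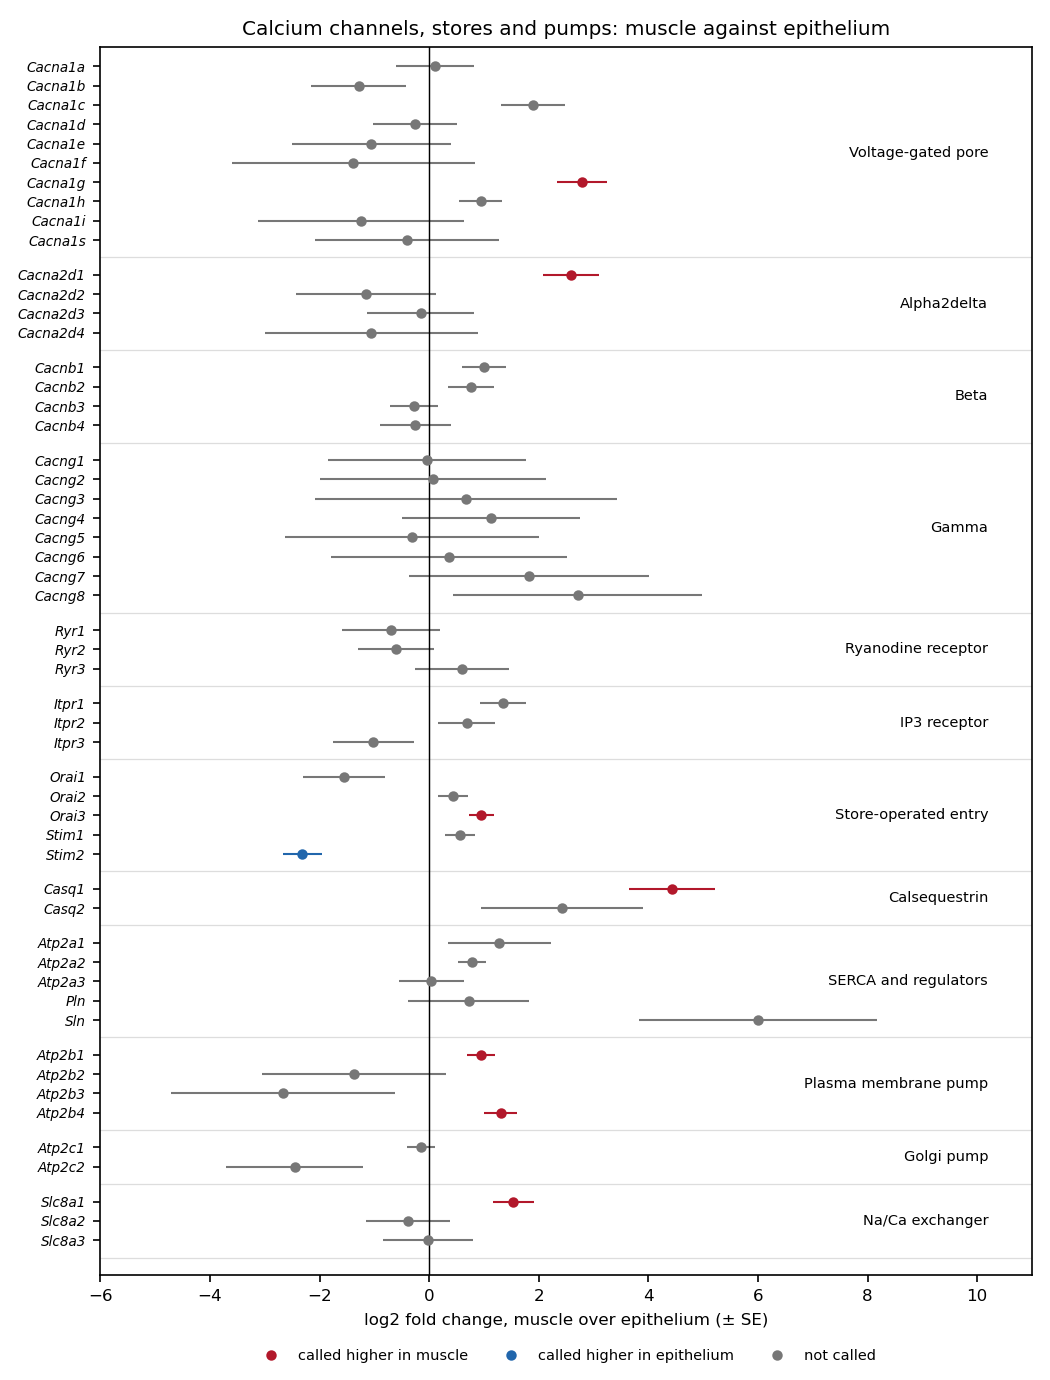
Log2 fold change of muscle over epithelium (x axis, with SE as bars) for each of the 53 calcium genes, grouped by role, from edgeR. The 7 genes called higher in muscle are red, and Stim2 is the 1 gene called higher in epithelium (blue). Wide bars include those of genes with few counts, such as the gamma subunits, and that of Sln. Sln had 743 counts in muscle replicate 1 and at most 43 in any other library.

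Of the 10 voltage-gated pore genes, 1 was called higher in muscle, beside 6.58% of all genes tested. Cacna1g encodes the pore of the T-type channel Cav3.1, which opens at small depolarisations. Its level was 61.9, 51.5 and 90.5 CPM in muscle replicates 1 to 3 and 6.02, 17.2 and 6.5 CPM in epithelium. The lowest muscle library was about 3 times the highest epithelium library, which was replicate 2. Muscle exceeded epithelium by 2.79 ± 0.45 on the log2 scale (SE, n = 3 per group; adjusted p = 0.0049, edgeR), with adjusted p at most 0.025 in the 14 alternatives. The gene lies on chromosome 11 from 94408391 to 94474198 on the minus strand (GRCm38, the same assembly as mm10).

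Cacna1h, the pore of the second T-type channel Cav3.2, was present in both tissues. It measured 42.9, 21.5 and 54.9 CPM in muscle and 16.1, 30.4 and 16.0 CPM in epithelium. The groups overlapped through replicate 2 of each, and a difference of 0.94 ± 0.40 in log2 missed the threshold (adjusted p = 0.21, edgeR). It passed without muscle replicate 2 (1.25, adjusted p = 0.041) and without replicate 2 of both tissues (1.53, adjusted p = 0.010).

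Cacna1c, the pore of the L-type channel Cav1.2 that carries most depolarisation-driven calcium entry in smooth muscle, measured 18.5, 16.0 and 28.3 CPM in muscle and 1.77, 9.96 and 5.30 CPM in epithelium. The groups did not overlap, but the epithelium libraries differed among themselves several-fold. On the log2 scale the difference was 1.90 ± 0.58 and did not pass (adjusted p = 0.076, edgeR). Without epithelium replicate 2 it did (2.56, adjusted p = 0.015), and it also passed with DESeq2 (1.74, adjusted p = 0.042), limma-voom (2.82, adjusted p = 0.0057) and no filter on low counts (1.93, adjusted p = 0.048). Per kilobase of exon, Cacna1c stood at 60.2, 1.76 and 2.23 times the receptor-gene level in the epithelium libraries and at 104, 5.21 and 238 times that level in the muscle libraries. The part of such background in the result was not tested.

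The other 7 pore genes overlapped between the tissues and were not called, with adjusted p from 0.53 to 0.97. Cacna1d (Cav1.3) and Cacna1a (Cav2.1) reached 14.9 and 14.4 CPM in epithelium replicate 2. Cacna1s, the L-type pore of skeletal muscle, was at 4.26, 5.09 and 0.556 CPM in muscle and at 0, 9.56 and 3.57 CPM in epithelium. Cacna1b, Cacna1e, Cacna1f and Cacna1i, known mainly from neurons and sensory cells, had log2 fold changes of -1.29, -1.06, -1.39 and -1.25. In each of these 4 genes the highest library of each tissue was replicate 2, or for Cacna1f epithelium replicate 3 in epithelium.

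Auxiliary subunits set how many pores reach the membrane and how they gate. Cacna2d1, an alpha2delta subunit, was at 27.1, 23.7 and 41.0 CPM in muscle and at 1.80, 6.88 and 6.65 CPM in epithelium. Every muscle library was more than 3 times the highest epithelium library. Its log2 fold change was 2.59 ± 0.51 (edgeR adjusted p = 0.012, at most 0.044 in the alternatives), and it lies on chromosome 5 from 15934691 to 16374511, plus strand. The other 3 alpha2delta genes were not called, with log2 fold changes of -1.15 for Cacna2d2, -0.16 for Cacna2d3 and -1.06 for Cacna2d4.

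None of the 4 beta subunits was called. Cacnb3, the most abundant of them per kilobase, was at 121.5, 48.2 and 86.6 CPM in muscle and 150.4, 49.8 and 110.7 CPM in epithelium. Its spread within each tissue was wider than the distance between their means, and in both tissues replicate 2 was lowest. Cacnb1, the beta subunit of skeletal muscle channels, differed by 1.01 ± 0.40 in log2 (edgeR adjusted p = 0.18) and Cacnb2, found with Cav1.2 in cardiac and smooth muscle, 0.76 ± 0.42 (adjusted p = 0.37). The 8 gamma genes, most of which partner with neuronal glutamate receptors, were all below 5 CPM in every library and gave no call. For Cacng8 the muscle libraries, at 0.570 to 0.899 CPM, all lay above the epithelium libraries, at 0 to 0.267 CPM, with an SE of 2.28 on a log2 fold change of 2.71.

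Of the store proteins, calsequestrin showed the widest difference among the genes called. Casq1 encodes the calcium-binding protein of the sarcoplasmic reticulum that is typical of fast skeletal fibres, and Casq2 the form typical of heart and also found in smooth muscle. Casq1 was at 57.3, 30.2 and 96.1 CPM in muscle (mean 61.2 ± 33.1 SD, n = 3) and at 1.00, 6.62 and 1.35 CPM in epithelium (2.99 ± 3.14). The lowest muscle library, replicate 2, was above the highest epithelium library, also replicate 2, by more than 4 times. This made a log2 fold change of 4.43 ± 0.78 (edgeR adjusted p = 0.0076), with adjusted p at most 0.046 in the alternatives. Casq1 lies on chromosome 1 from 172209894 to 172219868 on the minus strand. An annotated antisense gene, Gm17224, overlaps 156 bases of its exons (8.0% of their length), and a library kit that keeps no strand cannot divide reads there.

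Casq2 was not called. It measured 18.02, 5.94 and 3.34 CPM in muscle and 0, 2.74 and 2.40 CPM in epithelium. The groups did not overlap, but muscle replicate 1 was about 3 times the next library, and 2.42 ± 1.48 in log2 came with an edgeR adjusted p of 0.45. Per kilobase of exon, Casq1 averaged 31.4 CPM in muscle and 1.53 CPM in epithelium, the second highest muscle level of the 53 genes after Orai3.

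**Figure D2:**
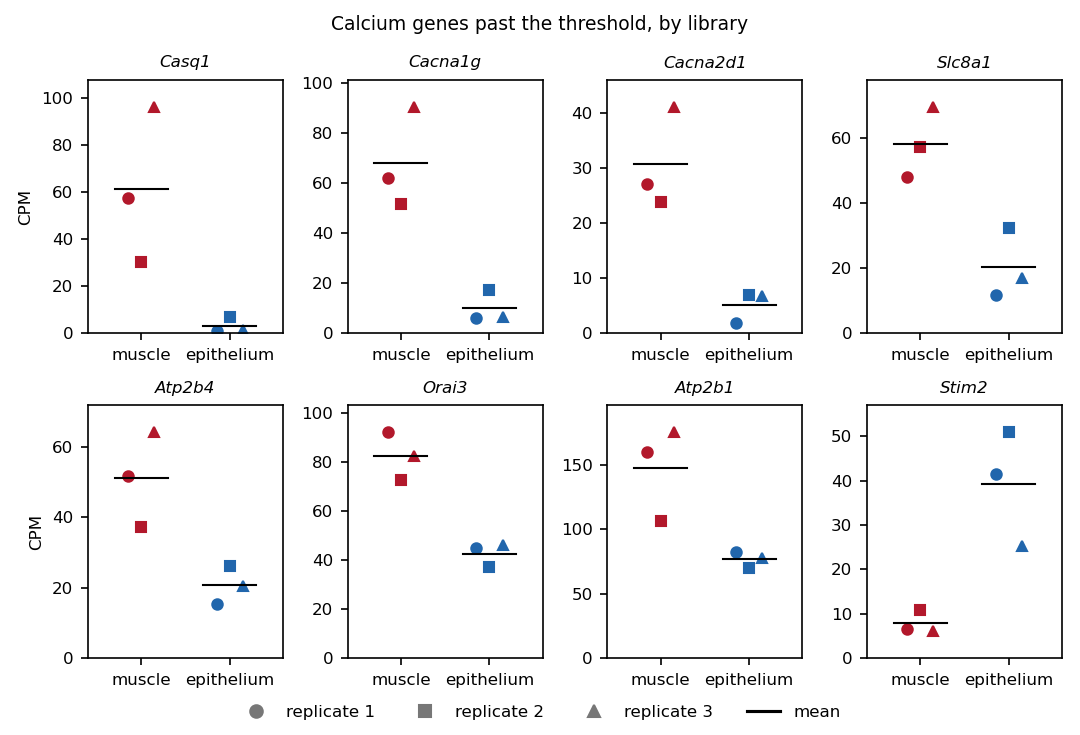
Level in CPM (y axis, from 0) of the 8 calcium genes past the threshold in each of the 3 muscle (red) and 3 epithelium (blue) libraries, with symbols for the replicate number and a line at the mean. In all 8 genes the 2 tissues do not overlap, and in 6 of the 7 muscle genes the lowest muscle library is replicate 2.

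None of the 6 release channels was called. Itpr1, the IP3 receptor known as the main form in smooth muscle, was at 52.6, 24.7 and 60.7 CPM in muscle and 10.7, 27.1 and 16.7 CPM in epithelium. Muscle replicate 2 fell below epithelium replicate 2, and the difference, 1.35 ± 0.42 in log2, was not called (edgeR adjusted p = 0.084). It passed without muscle replicate 2 (1.66, adjusted p = 0.017), without epithelium replicate 2 (1.70, adjusted p = 0.026) and with limma-voom (1.56, adjusted p = 0.027). For Itpr2 the difference was 0.68 ± 0.52 and for Itpr3, the form common in epithelia, -1.02 ± 0.74, with adjusted p of 0.60 and 0.57.

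Ryanodine receptors release calcium from the same stores in response to calcium itself or, in skeletal muscle, to the membrane channel. Ryr3 was at 17.8, 19.97 and 18.98 CPM in muscle and at 0.743, 21.9 and 15.02 CPM in epithelium. The muscle libraries were close together, while epithelium replicate 1 was far below the other epithelium libraries, and the difference was not called (0.60 ± 0.85, adjusted p = 0.87, edgeR). In the 14 alternatives the Ryr3 log2 fold change ranged from 0.055 to 2.77, with adjusted p at least 0.052. Per kilobase of exon, Ryr3 stood at 28.3, 4.31 and 7.05 times the receptor-gene level in the epithelium libraries. In the muscle libraries it stood at 111, 7.26 and 178 times that level. Ryr1, the skeletal form, and Ryr2, the cardiac form, had their highest values in replicate 2 of each tissue, 21.02 and 28.2 CPM for Ryr1 and 16.3 and 21.7 CPM for Ryr2. Per kilobase of exon these were 6.64 and 4.82 times the receptor-gene level of those libraries for Ryr1, and 3.90 and 2.81 times for Ryr2. In epithelium replicate 3 the ratios were 6.24 and 3.98.

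Store-operated entry begins when a STIM protein of the reticulum senses an emptied store and opens an ORAI pore of the plasma membrane. This was the 1 role in which calls went both ways. Stim2, the sensor that responds to small falls of stored calcium, was at 6.65, 10.9 and 6.09 CPM in muscle (mean 7.88 ± 2.62 SD) and at 41.4, 50.9 and 25.2 CPM in epithelium (39.2 ± 12.99). Every epithelium library was more than 2 times the highest muscle library. Muscle over epithelium was -2.32 ± 0.36 in log2 (edgeR adjusted p = 0.0038, at most 0.015 in the alternatives), and the gene lies on chromosome 5 from 53998499 to 54121057, plus strand. Its paralogue Stim1, the main sensor in most cells, was at 21.5, 29.4 and 31.0 CPM in muscle and 13.8, 21.7 and 19.9 CPM in epithelium. The lowest muscle library and the highest epithelium library met, and the difference of 0.56 ± 0.28 did not pass (adjusted p = 0.29).

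Among the pores, Orai3 was at 92.4, 72.7 and 82.6 CPM in muscle and 45.0, 37.0 and 46.2 CPM in epithelium. All muscle values were higher, and the spread within each tissue was small beside the distance between them. That distance was 0.95 ± 0.22 in log2 (edgeR adjusted p = 0.027) for this gene on chromosome 7 from 127769815 to 127775150, plus strand. The call ended without muscle replicate 1 (adjusted p = 0.11), muscle replicate 3 (0.092), epithelium replicate 1 (0.090), epithelium replicate 2 (0.061) or epithelium replicate 3 (0.12), while the fold change stayed between 0.81 and 1.04. Orai1, the pore of the classical current, was 1.86, 3.10 and 2.60 CPM in muscle and 6.71, 12.4 and 3.19 CPM in epithelium. Those groups touched without overlapping, and -1.56 ± 0.75 in log2 was not called (adjusted p = 0.28). Orai2 overlapped (0.43 ± 0.27, adjusted p = 0.47). Per kilobase of exon, Orai3 averaged 38.6 CPM in muscle and 19.96 CPM in epithelium, Orai2 5.58 and 4.13, and Orai1 1.10 and 3.23.

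The immediate upstream sequences of Casq1 and Stim2 are shown because these genes had the largest called difference in each direction. They are the 250 bases before the RefSeq start (GRCm38.p6), written 5′ to 3′ on the gene's own strand, at chr1:172219896-172220145 (minus strand) for Casq1 and chr5:53998273-53998522 (plus strand) for Stim2. Capitals mark the E-box CANNTG, the binding motif of basic helix-loop-helix factors, which reads as a CANNTG on both strands.
Casq1: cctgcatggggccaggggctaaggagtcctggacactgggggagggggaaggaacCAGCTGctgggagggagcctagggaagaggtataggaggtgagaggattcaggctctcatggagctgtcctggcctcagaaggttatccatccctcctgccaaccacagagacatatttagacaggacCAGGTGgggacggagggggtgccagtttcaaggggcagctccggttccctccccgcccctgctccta
Stim2: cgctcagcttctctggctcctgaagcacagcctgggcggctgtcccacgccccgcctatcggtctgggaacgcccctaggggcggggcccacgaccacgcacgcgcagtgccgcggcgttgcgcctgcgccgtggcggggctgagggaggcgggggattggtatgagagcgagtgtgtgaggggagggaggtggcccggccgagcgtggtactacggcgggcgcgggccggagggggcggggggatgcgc
The Casq1 window held 2 E-boxes and 3 CpG pairs at 61.6% GC, and the Stim2 window no E-box and 30 CpG pairs at 74.8% GC. RefSeq windows matched 41 of the 53 genes (54 windows). Of these windows 64.8% held an E-box, against 66.2% of all 32851 windows, and their median was 10 CpG pairs against 6. The CArG box, the motif of serum response factor, with 2 C, 6 A or T and 2 G, was in none of the 54 and in 1.47% of all windows. A match is a run of letters and not a bound site, and no match says only that the letters are absent from this window.

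The plasma membrane pumps, which push calcium out of the cell, gave 2 calls among 4 genes, both higher in muscle. Of all genes tested, 6.58% were called higher in muscle, and 11.9% of those with an average log2 CPM of 4 or more. Atp2b1 (PMCA1, found in most cells) was at 160.0, 106.7 and 175.5 CPM in muscle and 82.2, 70.2 and 77.9 CPM in epithelium. Muscle libraries were all higher, with the lowest, replicate 2, nearest to epithelium. The difference was 0.94 ± 0.26 in log2 (edgeR adjusted p = 0.048), and the gene lies on chromosome 10 from 98914406 to 99026143, plus strand. The call was close to the threshold: it ended without muscle replicate 1 (adjusted p = 0.17), muscle replicate 3 (0.21), epithelium replicate 1 (0.11), epithelium replicate 2 (0.093) or epithelium replicate 3 (0.21), and with no filter on low counts (0.052).

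Atp2b4 (PMCA4, known as a form with signalling roles in smooth muscle) was at 51.7, 37.2 and 64.2 CPM in muscle and 15.4, 26.2 and 20.6 CPM in epithelium. Again muscle replicate 2 and epithelium replicate 2 were the nearest libraries and did not meet. Muscle was higher by 1.30 ± 0.30 in log2 (edgeR adjusted p = 0.024) for this gene on chromosome 1 from 133699457 to 133801041, minus strand. This call ended without muscle replicate 1 (adjusted p = 0.059), muscle replicate 3 (0.082), epithelium replicate 1 (0.072) or epithelium replicate 3 (0.10), and with library totals as the only scaling (0.077). Atp2b2 and Atp2b3, the forms of neurons and hair cells, were below 10 CPM in every library, listed at 0 in muscle replicate 3, and not called.

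Slc8a1 (NCX1) exchanges sodium for calcium at the plasma membrane and is the form of heart and smooth muscle. It was at 48.1, 57.2 and 69.5 CPM in muscle and 11.5, 32.2 and 16.9 CPM in epithelium. The muscle libraries were all higher, and this was the 1 of the 7 muscle genes in which replicate 1 and not replicate 2 was the lowest of them. The difference came to 1.53 ± 0.38 in log2 (edgeR adjusted p = 0.032), and the gene lies on chromosome 17 from 81373105 to 81738377, minus strand. The call ended without muscle replicate 3 (adjusted p = 0.082), epithelium replicate 1 (0.058) or epithelium replicate 3 (0.15), with RLE scaling (0.070), with library totals only (0.15) and with a stricter filter (0.056). Slc8a2 and Slc8a3 were below 7 CPM in every library, with log2 fold changes of -0.39 and -0.02.

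The reticulum pumps were not called. Atp2a2 (SERCA2, the form of heart and smooth muscle and of most other cells) was at 61.3, 71.1 and 100.3 CPM in muscle and 42.9, 52.8 and 40.3 CPM in epithelium. Muscle was above epithelium in every library, and 0.78 ± 0.26 in log2 came with an edgeR adjusted p of 0.10. Its inhibitor Pln was at 2.17, 3.25 and 3.97 CPM in muscle and 0.929, 3.34 and 1.43 CPM in epithelium, which overlapped, and 59.6% of its exon length is shared with the opposite-strand gene Gm47644. Atp2a3 overlapped as well, with a log2 fold change of 0.04 ± 0.60 that was -0.09 under RLE scaling and -0.26 with library totals only. Of the Golgi pumps, Atp2c1 overlapped between the tissues (-0.15 ± 0.26, edgeR adjusted p = 0.90), and 18.9% of its exon length is shared with the opposite-strand gene Aste1. Atp2c2, the form of secretory epithelia, was at 0.342, 3.25 and 0.101 CPM in muscle and 5.11, 6.15 and 8.90 CPM in epithelium, without overlap and without a call (-2.46 ± 1.25, adjusted p = 0.32). Without muscle replicate 2, the muscle library highest for it, the Atp2c2 difference was -4.91 (adjusted p = 0.017).

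Several members are best known from striated muscle, and skeletal muscle markers were unequal between libraries. Of 15 such markers tested, none was called and 5 had all muscle libraries above epithelium, as did 16.4% of all genes. The summed level of these markers was 450, 46.8 and 48.6 CPM in muscle and 7.62, 48.1 and 26.7 CPM in epithelium. Myog, a myogenic factor of differentiating skeletal muscle, was at 245, 1.20 and 17.3 CPM in muscle and 0, 3.34 and 1.28 CPM in epithelium. Myod1 was at 62.1, 0.499 and 3.82 CPM in muscle and likewise at 0 in epithelium replicate 1. Muscle replicate 1 was thus the library with most skeletal transcript by a wide margin.

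Sln, the small SERCA inhibitor sarcolipin, followed that library: its counts were 743, 18 and 43 in muscle and 0, 8 and 0 in epithelium, or 28.2, 0.899 and 1.09 CPM against 0, 0.535 and 0. The difference of 6.0 ± 2.17 in log2 was not called (edgeR adjusted p = 0.13) and was 2.54 without muscle replicate 1. Atp2a1 (SERCA1, of fast skeletal fibres) was at 43.1, 5.94 and 3.97 CPM in muscle and 1.95, 12.03 and 8.0 CPM in epithelium. Muscle replicate 1 alone was high, and the log2 fold change of 1.28 ± 0.94 became -0.55 without it. Its exons share 763 bases (21.9%) with Rabep2 on the opposite strand. Casq2 dropped from 2.42 to 1.45 without muscle replicate 1. Casq1 did not follow the same library: it was highest in muscle replicate 3, and its log2 fold change without muscle replicate 1 was 4.49 (adjusted p = 0.038). Nor did Cacna1s and Ryr1, which were highest in epithelium replicate 2, at 9.56 and 28.2 CPM. In muscle replicate 1 these genes were at 4.26 and 5.13 CPM. Among the muscle libraries Cacng1 was highest in replicate 1, at 3.23 CPM against 0.499 and 0.657 CPM in replicates 2 and 3. Its highest library of all was epithelium replicate 2, at 4.08 CPM. The Cacng1 log2 fold change was -0.04 and became -1.34 without muscle replicate 1.

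**Figure D3:**
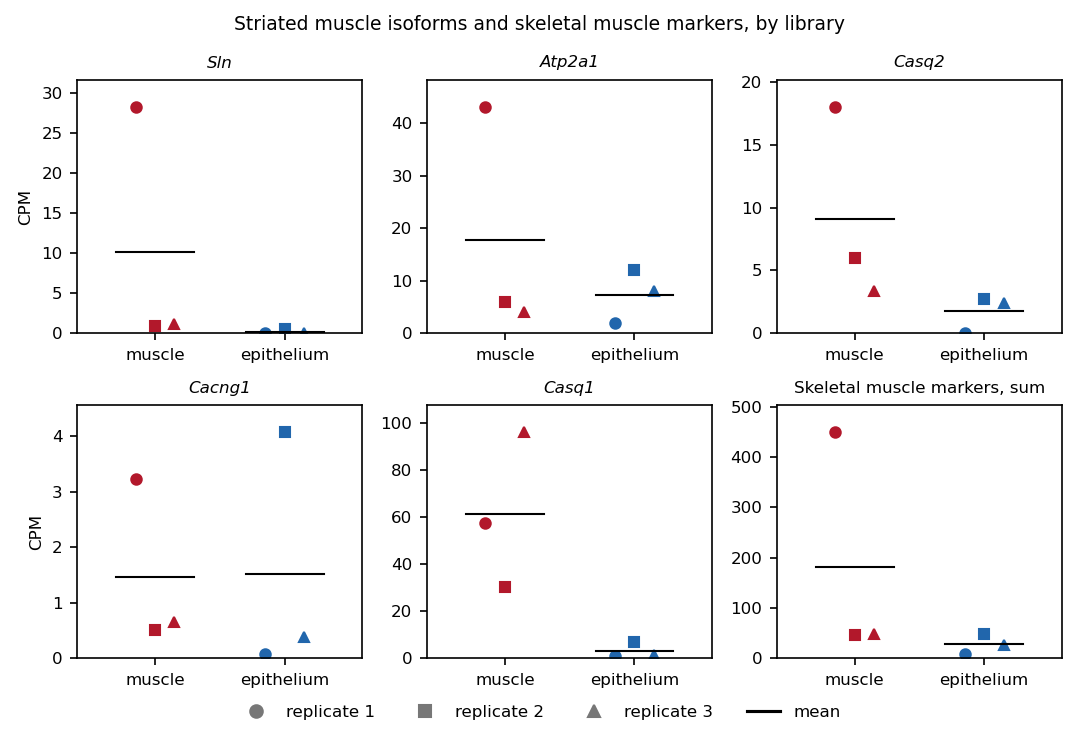
Level in CPM (y axis, from 0) of 5 members known from striated muscle and the summed level of 15 skeletal muscle markers, for each muscle (red) and epithelium (blue) library, with symbols for the replicate number and a line at the mean. Muscle replicate 1 is the highest library for Sln, Atp2a1, Casq2 and the marker sum. Casq1 is highest in muscle replicate 3. Cacng1 is highest in epithelium replicate 2 and, within muscle, in replicate 1.

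Markers of other cell types were read the same way, beside the 6.58% of all genes called higher in muscle. Of 8 cardiac markers, 2 were higher in muscle, Myl4 and Myl7, with sums over the list of 92.3 to 135 CPM in muscle and 13.3 to 32.7 CPM in epithelium. Of 6 endothelial markers, 1 was higher in muscle (Esam), with sums of 68.0 to 86.8 CPM against 2.03 to 55.1. Of 8 cartilage markers, 4 were higher in muscle, with sums of 911 to 1492 CPM against 271 to 594. No neuronal marker of 10 was called, with sums of 36.4 to 95.1 CPM in muscle and 26.6 to 86.3 CPM in epithelium, highest in replicate 2 of each tissue. The part of these cells in the calcium gene results was not tested.

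Many of the lower members lay near the receptor-gene level. Set per kilobase of exon, 8, 34 and 10 of the 53 genes were under 10 times that level in the 3 muscle libraries. The numbers in the 3 epithelium libraries were 11, 40 and 39, so the same libraries stood apart. Conversely, 9 members were listed at 0 in epithelium replicate 1 and none in either replicate 2 library. The median member stood at 0.785, 1.01 and 0.877 CPM per kilobase in muscle and at 0.321, 1.29 and 0.667 CPM per kilobase in epithelium.

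**Figure D4:**
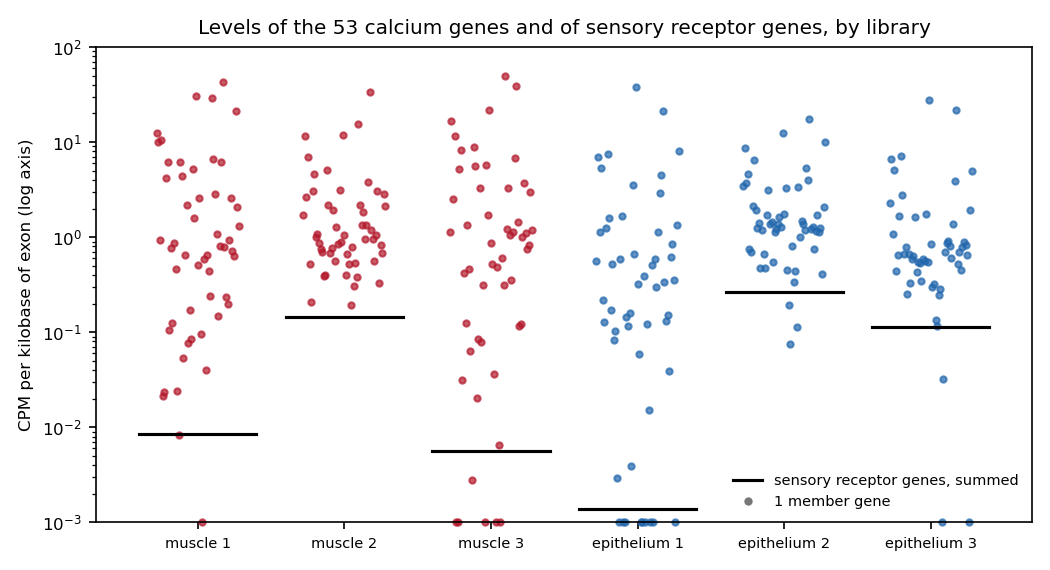
Level of each of the 53 calcium genes (points) in CPM per kilobase of exon on a log axis, for each library, with the summed level of the sensory receptor genes as a black line. Genes with no counts are drawn on the bottom edge of the axis, and the lines of muscle replicate 2 and epithelium replicates 2 and 3 lie above 0.1 while the other 3 lie below 0.01.

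Genes that work with the members but lie outside them were read from lists. Over all genes tested, 6.58% were called higher in muscle and 4.11% higher in epithelium. At an average log2 CPM of 4 or more these shares were 11.9% and 6.35%, and the list counts below are to be read beside them. Of 11 channel partners, 5 passed as higher in muscle and none as higher in epithelium. Jph2, which ties the reticulum to the plasma membrane, was at 79.9, 24.8 and 148 CPM in muscle and 0.372, 1.87 and 0.901 CPM in epithelium (log2 fold change 6.46 ± 0.83, adjusted p = 0.0017, edgeR). Every muscle library was more than 10 times the highest epithelium library. Stac, an adaptor of L-type channels, differed by 4.29 ± 0.82 (adjusted p = 0.010) and Rrad, a small GTPase that restrains them, 4.21 ± 0.47 (adjusted p = 0.00093). Rem1 and Gem, of the same GTPase family, were the other 2. Rem2 of that family went the other way and was not called (-1.99 ± 0.58, adjusted p = 0.064, edgeR). It was at 11.3, 3.10 and 7.15 CPM in muscle and 46.2, 11.4 and 27.9 CPM in epithelium, without overlap.

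Among 24 further store proteins there were 7 calls, all towards muscle. Mrvi1, the IP3 receptor-associated substrate of cGMP-dependent kinase, was at 185, 29.4 and 139 CPM in muscle and 0.279, 9.29 and 3.83 CPM in epithelium (4.78 ± 1.11, adjusted p = 0.026, edgeR). Muscle replicate 2 was again the lowest of its group. The calcium-binding proteins Rcn3 (2.10 ± 0.24, adjusted p = 0.0010) and Calu (1.37 ± 0.23, adjusted p = 0.0057) of the secretory pathway were also higher, and Rcn1, Nucb1, Calr and Hsp90b1 completed the group.

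Of 32 genes of calcium sensing and response, 4 were higher in muscle and 1 in epithelium. Mylk, the myosin light chain kinase, was at 1332, 311 and 1842 CPM in muscle and 3.48, 18.8 and 9.31 CPM in epithelium (6.80 ± 0.89, adjusted p = 0.0018, edgeR). Its lowest muscle library was above the highest epithelium library by more than 10 times. The calmodulin-dependent phosphodiesterases Pde1a (3.35 ± 0.53, adjusted p = 0.0043) and Pde1b (1.88 ± 0.50, adjusted p = 0.046) and the kinase Camk1 were the others. Rcan1, a calcineurin regulator, was the epithelial gene, at 27.6, 25.8 and 46.1 CPM in muscle and 145, 93.0 and 91.6 CPM in epithelium (-1.73 ± 0.32, adjusted p = 0.0088).

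Phospholipase C makes the IP3 that opens Itpr receptors, and 3 of its 14 genes were called. Plcb1 (1.86 ± 0.33, adjusted p = 0.0078, edgeR) and Plce1 (1.95 ± 0.44, adjusted p = 0.022) were higher in muscle. Plch2 was higher in epithelium, at 14.7, 12.5 and 17.9 CPM in muscle and 83.1, 62.9 and 57.1 CPM in epithelium (-2.17 ± 0.26, adjusted p = 0.0012). None of 11 genes of mitochondrial calcium uptake was called, although 4 had all muscle libraries above epithelium, as did 16.4% of all genes.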

How the data were processed

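Gene-level counts were used as deposited by the authors, whole numbers per gene symbol with no normalization. Per the labels' protocols, tracheas were dissociated with TrypLE, sorted, and RNA extracted with Trizol and amplified with SMART-Seq v4 before Nextera XT library preparation. Per the submitters' processing notes, the build was mm10 and Trim Galore, Bowtie2, Cufflinks and DESeq were used, without versions; the counter, annotation and strand setting are not given in the sources used here.

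Muscle (n = 3) was compared with epithelium (n = 3) in R 4.3.3 with edgeR 4.0.16 (TMM scaling, filterByExpr by group, robust quasi-likelihood test, two-sided, Benjamini-Hochberg adjustment over 19375 genes, threshold 0.05). CPM values use the TMM-scaled library sizes. The SE is the absolute log2 fold change divided by the square root of F. Scripts were tested on simulated data. DESeq2 1.42.0, limma 3.58.1 (voom), RLE scaling, library totals only, other filters, each library left out, a replicate block and replicates 1 and 3 only were tried as 14 alternatives. Exon lengths and positions came from GENCODE M21 (GRCm38), promoter windows from RefSeq.

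Named are all called members and the other members by role. Values are given for up to 3 called genes per direction of each pathway list, with an average log2 CPM of 2 or more. Other called genes of those lists are named without values. The uncalled Rem2 is named beside its family. The members, lists and markers were chosen with earlier results of these data known.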

Additional observations from a re-analysis of the deposited data

How the results depend on the processing

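The number of calcium genes higher in muscle was 7 and ranged from 3 to 9 when 1 library was left out. With replicates 1 and 3 only it was 12. It was 6 with RLE scaling, 5 with library totals only, 8 with DESeq2, 9 with limma-voom, 7 with no filter on low counts and 6 with a stricter filter (average log2 CPM from 1 up). The number higher in epithelium was 1, ranged from 1 to 3 with 1 library left out, was 2 with replicates 1 and 3 only and 1 elsewhere. The genes added with replicates 1 and 3 only were Cacna1c, Cacna1h, Cacnb2, Itpr1 and Sln in muscle and Atp2c2 in epithelium. Scaling moved the median log2 fold change of all genes from -0.10 to -0.20 (RLE) and -0.33 (library totals only). The median over the members was 0.11 and changed sign between settings. It ranged from -0.057 (library totals only) to 0.91 (limma-voom) across the alternatives. With replicate number as a block, 7 and 1 genes were called, with no call gained or lost. Same-numbered libraries deviated together for numbers 1 (correlation 0.59) and 2 (0.73) but not 3 (-0.57), so the numbers were not taken as pairs. Not every library correlated best with its own number.

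Some uncalled members changed sign, and the cause was not tested. Atp2a3 was -0.087 with RLE scaling, -0.26 with library totals only, -0.087 with DESeq2 and -0.063 with the stricter filter. Cacna1d was 1.08 with limma-voom, 0.23 with the replicate block and 0.19 with replicates 1 and 3 only, Cacna1s 3.18 with limma-voom and 0.35 with replicates 1 and 3 only, and Cacng1 1.85 with limma-voom, 0.017 with no filter, 0.90 with the replicate block and 3.04 with replicates 1 and 3 only. With 1 library left out, log2 fold changes ranged from -0.55 to 1.82 for Atp2a1, -0.34 to 0.82 for Atp2a3, -0.37 to 0.045 for Atp2c1, -0.75 to 0.54 for Cacna1d, -0.97 to 0.97 for Cacna1s, -0.69 to 0.11 for Cacnb3, -1.34 to 2.68 for Cacng1, -1.99 to 0.15 for Ryr1 and -1.48 to 0.026 for Ryr2. In the main edgeR fit, none of the 38 members whose average log2 CPM was under 4 was called, and the part of depth in this was not tested. Some of them were called in alternatives, such as Cacna1c with DESeq2 and Sln with replicates 1 and 3 only.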
